A study of Mus musculus with 24 samples.

Results

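Interferon-stimulated genes (ISGs) were followed in 24 mouse melanomas, and 39 of them were chosen by gene symbol. The list was drawn up with earlier results of these data known. All 39 were found among the 24421 genes of the count table, and all 39 had enough reads to be among the 17214 genes tested. The list held 25 targets of type I interferon, 4 transcription factors that carry the signal, 9 targets of interferon gamma and Cxcl10, a chemokine gene induced by both. All tumours were melanomas of TN mice (strain C57BL/6), whose melanocytes express a tamoxifen-dependent Cre from the tyrosinase promoter. Cre turns on the mutant Nras knock-in once 4-hydroxytamoxifen is applied, here at 20 mM on postnatal days 1 and 2. The mice were homozygous for histidine (TN61H/H), leucine (TN61L/L), lysine (TN61K/K) or arginine (TN61R/R) at codon 61, with 6 tumours for each genotype and no tumour without a mutant allele. Each library held between 31.9 and 43.8 M counted reads. Neither the age of each mouse at collection nor its exposure to ultraviolet light was stated by sample. The paper reported later melanoma onset and longer survival in TN61H/H than in TN61L/L, TN61K/K or TN61R/R mice. Age at collection may therefore differ with genotype, and its part was not tested. Whether any tumours shared a mouse was not stated either, and the tests use only the variation among the tumours.

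Type I interferons are secreted when a cell senses foreign or misplaced nucleic acid. They bind the IFNAR receptor, and the kinases beneath it activate STAT2. STAT2 joins IRF9 in a complex that binds the interferon-stimulated response element (ISRE) in front of antiviral genes. Interferon gamma, made by T cells and natural killer cells, binds its own receptor and acts at the gamma-activated site (GAS), which drives the guanylate-binding proteins (Gbp), the immunity-related GTPases (Irgm1, Irgm2, Igtp, Iigp1) and the T cell chemokine Cxcl9. The lists overlap in biology, because many Gbp and Irgm genes also answer type I interferon and many antiviral genes answer interferon gamma.

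Promoter letters of members that differed between genotypes are printed here to show the elements named above. RefSeq start windows (GRCm38.p6, from 250 bases before to 50 bases after a start) were at hand for 30 of the 39 members and not for Mx1, Mx2, Oas2, Usp18, Dhx58, Parp14, Rtp4, Zbp1 and Iigp1. The ISRE core, searched on both strands as TTTC, any 2 bases and TTTC (GAAA, any 2 bases and GAAA on the other strand), occurred in 19 of these 30 genes (63.3%), against 3.44% of all 32851 windows. It was present in 7 of 8 gamma targets and in 10 of 17 type I targets. The GAS letters TTCNNNGAA, which read the same on both strands, occurred in 10 of 30 members (33.3%), against 8.3% of all windows, and overlapped an ISRE core in Bst2 only. Members that were lower in TN61H/H melanomas in the tests that follow held the ISRE core in 7 of 12 cases and the others in 12 of 18. The GAS letters occurred in 2 of those 12 and in 8 of the 18. By list they occurred in 4 of 8 gamma targets and in 5 of 17 type I targets. These splits were not tested. Members were counted by gene, with a match in any of its windows, whereas the share of all windows counts each window singly. A match is a run of letters and not a measured binding site. In the 6 sequences, the 250 bases before the start are written from 5′ to 3′ on the gene's strand, with ISRE and GAS letters in capitals. They lie at chr4:156200819-156201068 (Isg15, minus strand), chr5:120907526-120907775 (Oas1a, minus), chr5:120777660-120777909 (Oas3, minus), chr12:26456453-26456702 (Rsad2, minus), chr17:78882573-78882822 (Eif2ak2, minus) and chr10:128270248-128270497 (Stat2, plus).
Isg15: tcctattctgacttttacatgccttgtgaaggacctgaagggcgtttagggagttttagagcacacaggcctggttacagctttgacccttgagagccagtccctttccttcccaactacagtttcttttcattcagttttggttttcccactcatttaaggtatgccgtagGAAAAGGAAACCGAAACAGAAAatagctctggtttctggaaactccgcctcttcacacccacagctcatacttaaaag
Oas1a: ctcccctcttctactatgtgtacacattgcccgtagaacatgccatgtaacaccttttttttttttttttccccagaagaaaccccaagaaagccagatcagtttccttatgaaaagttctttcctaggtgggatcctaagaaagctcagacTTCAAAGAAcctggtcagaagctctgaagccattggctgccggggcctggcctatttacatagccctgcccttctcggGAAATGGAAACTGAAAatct
Oas3: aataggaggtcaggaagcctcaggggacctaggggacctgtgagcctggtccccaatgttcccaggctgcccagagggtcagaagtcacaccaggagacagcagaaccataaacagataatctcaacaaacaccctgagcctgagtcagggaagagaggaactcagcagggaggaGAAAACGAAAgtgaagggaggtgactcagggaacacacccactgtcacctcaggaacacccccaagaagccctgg
Rsad2: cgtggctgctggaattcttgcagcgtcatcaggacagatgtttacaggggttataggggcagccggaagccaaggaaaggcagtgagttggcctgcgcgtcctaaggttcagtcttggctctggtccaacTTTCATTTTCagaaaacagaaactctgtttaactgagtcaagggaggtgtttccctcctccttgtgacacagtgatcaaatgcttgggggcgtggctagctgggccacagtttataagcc
Eif2ak2: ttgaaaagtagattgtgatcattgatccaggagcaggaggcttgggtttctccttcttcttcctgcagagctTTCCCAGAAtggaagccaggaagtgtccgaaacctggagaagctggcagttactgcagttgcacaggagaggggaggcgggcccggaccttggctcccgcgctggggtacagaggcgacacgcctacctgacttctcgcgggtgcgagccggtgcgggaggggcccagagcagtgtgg
Stat2: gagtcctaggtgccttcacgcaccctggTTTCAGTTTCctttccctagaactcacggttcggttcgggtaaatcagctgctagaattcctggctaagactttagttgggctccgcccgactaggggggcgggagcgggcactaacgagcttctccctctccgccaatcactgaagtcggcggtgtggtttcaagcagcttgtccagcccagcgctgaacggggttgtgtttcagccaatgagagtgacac
Isg15 carried 3 overlapping ISRE cores, which began 66 to 78 bases before the start, and Oas1a carried 2. In Oas1a and in Eif2ak2 the other capitals are a GAS match, and the ISRE core of Eif2ak2 began 18 bases after its start, outside the stretch shown.

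Before genotypes are compared, a few tumours and a feature of the table need naming. TN61K/K replicate 3 was the highest of all 24 tumours for 29 of the 39 members, and TN61R/R replicate 6 was the lowest for 9. The count table wrote 6 tumours without a separator in their column names (TN61H/H replicate 6, TN61L/L replicate 6, TN61K/K replicates 1, 3 and 6 and TN61R/R replicate 3) and 18 with one, and what this marks was not stated. Titles of TN61H/H, TN61L/L and TN61K/K tumours carry the code of their own genotype and those of TN61R/R tumours carry 61K, 61L or 61P, with 61K in TN61R/R replicates 1 and 2 and 61L in replicates 4 and 5. The code 61H holds no other genotype, so in the comparisons of TN61H/H the genotype and this code cannot be told apart. The same holds for TN61L/L against TN61K/K, where all titles carry 61L on one side and 61K on the other. TN61H/H replicates 4 and 5 share a number in their titles. The melanocyte markers Pmel, Mlana, Dct, Tyr, Tyrp1, Mitf and Sox10 summed to between 514 and 1107 CPM (read counts scaled to library size) in TN61H/H and between 157 and 700 CPM in the other 18 tumours. Sox10 made up most of this sum, with means of 615 ± 216 CPM in TN61H/H, 332 ± 103 CPM in TN61L/L, 258 ± 87.4 CPM in TN61K/K and 397 ± 192 CPM in TN61R/R (SD, n = 6 each). The list median of log2 fold changes was -0.20 in TN61H/H against TN61K/K, -1.09 against TN61L/L and -1.25 against TN61R/R, so the sum and the median differed in sign. Of the 7 markers, 2 were at 0 in TN61H/H replicate 5, TN61L/L replicate 1, TN61K/K replicate 6 and TN61R/R replicate 2, and 1 was at 0 in TN61H/H replicate 1.

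Per kilobase of transcript, averaged over the 24 tumours, the level of Bst2 (tetherin, which holds budding virus at the cell surface) was highest at 28.3 CPM per kilobase, followed by Ifit2 at 24.4 and Parp14 at 19.7. The lowest levels were those of Oas3 at 1.26, Ifi44 at 1.33 and Cxcl9 at 1.47 CPM per kilobase. These 3 low genes were also the members that varied the most between tumours, with an SD of log2 CPM of 1.33 for Cxcl9, 1.19 for Oas3 and 1.05 for Ifi44. Ifi35 varied least, with an SD of 0.29, close to Parp14 at 0.29. The median SD was 0.60 for the type I targets and 0.53 for the gamma targets, against 0.46 for all 17214 tested genes.

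**Figure D1:**
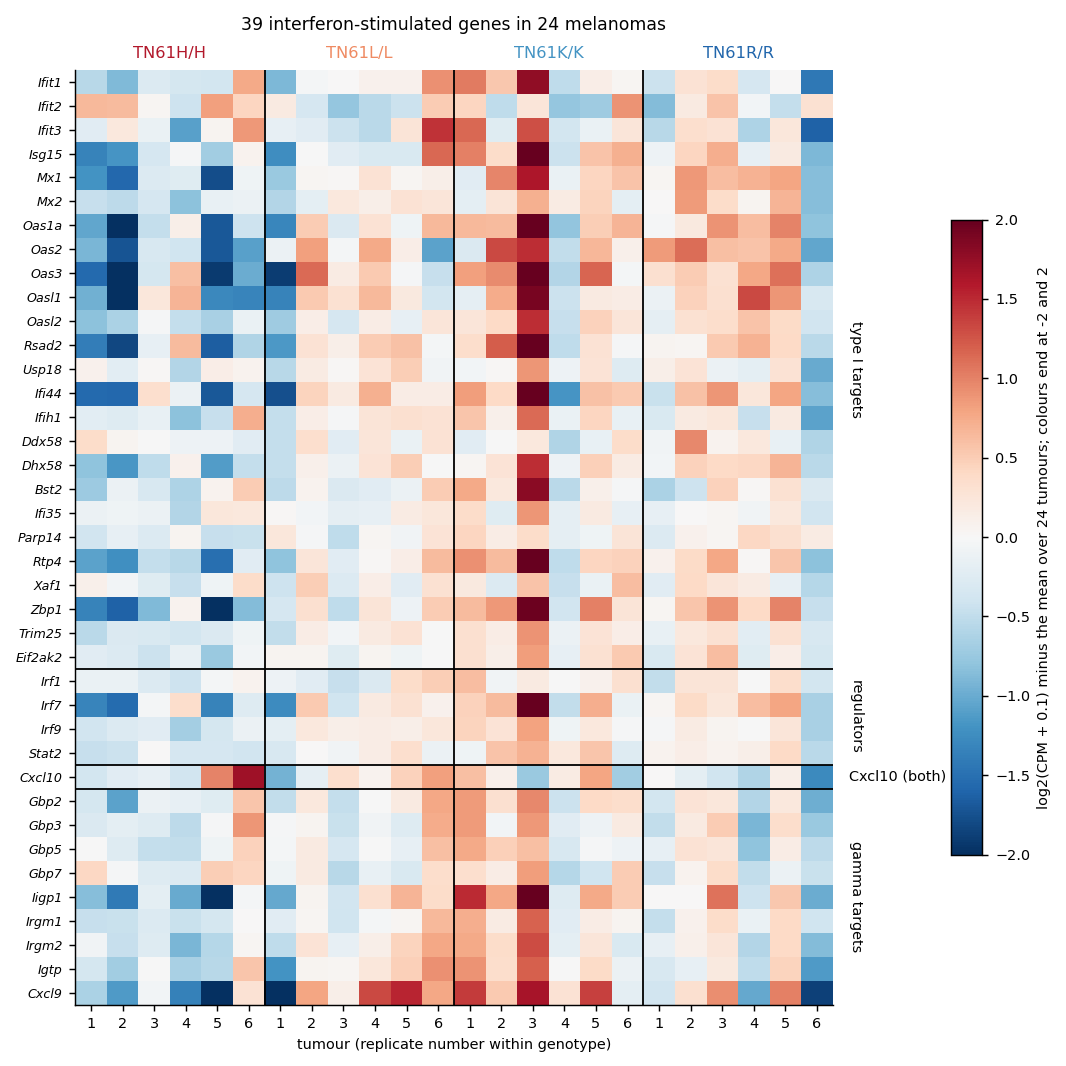
Heat map of 39 ISGs (rows, grouped by role) in 24 melanomas (columns, 6 for each genotype), coloured by log2(CPM + 0.1) minus the gene's mean over all tumours. TN61K/K replicate 3 is red in nearly every row and TN61H/H replicates 1, 2 and 5 are blue in most type I rows.

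More ISGs passed the test in TN61H/H against TN61K/K melanomas than in any of the other 5 pairs. Of the 39 ISGs, 18 (46.2%) were lower in TN61H/H and none was higher in the edgeR quasi-likelihood test (adjusted p under 0.05, Benjamini-Hochberg over all tested genes), against 5.07% of all tested genes lower and 4.29% higher. At an unadjusted p under 0.05, 27 were lower (12.4% of all genes) and 0 higher (13.9%). The 18 at the adjusted threshold were 13 of 25 type I targets, 3 of 4 transcription factors and 2 of 9 gamma targets. The median log2 fold change was -0.89 for the type I targets and -0.74 for the gamma targets, beside 0.01 for all tested genes. Because the list was drawn up with earlier results known, these shares and medians are descriptive. In bulk tumours fewer cells that express a gene and less RNA per cell cannot be told apart.

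Zbp1, which encodes a sensor of left-handed nucleic acid that can trigger necroptosis, showed the lowest p-value of the 39 (chromosome 2, 173206612 to 173218922, mm10). Its level was 4.33, 3.52, 5.95, 11.6, 2.16 and 6.05 CPM in the 6 TN61H/H melanomas, against 17.3, 20.3, 43.2, 8.44, 22.3 and 13.2 CPM in the 6 TN61K/K melanomas. TN61H/H replicate 4 lay above TN61K/K replicate 4, and every other TN61H/H tumour lay below every TN61K/K tumour. The log2 fold change was -1.89 ± 0.38 (SE, edgeR adjusted p = 0.00643). Rtp4, an interferon-induced chaperone of cell surface receptors (chromosome 16, 23609919 to 23614222), stood at 5.33, 4.77, 8.02, 7.61, 3.90 and 9.60 CPM in TN61H/H and at 21.2, 17.5, 49.6, 7.87, 15.2 and 15.6 CPM in TN61K/K. Here TN61H/H replicates 3 and 6 reached past the lowest TN61K/K tumour, replicate 4, and the log2 fold change was -1.69 ± 0.36 (edgeR adjusted p = 0.00851).

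The oligoadenylate synthetases, whose product activates RNase L to cut viral and cellular RNA, passed the test in all 3 listed genes. Oas2 (chromosome 5, 120730333 to 120749848) stood at 12.3, 6.94, 18.7, 17.6, 7.15 and 10.9 CPM in TN61H/H, against 19.04, 58.1, 64.9, 16.6, 37.2 and 25.1 CPM in TN61K/K, with a log2 fold change of -1.59 ± 0.39 (edgeR adjusted p = 0.0162). Oas3 stood at 1.43, 0.699, 3.44, 6.69, 1.09 and 2.15 CPM in TN61H/H, against 7.80, 8.56, 26.6, 2.91, 9.99 and 4.29 CPM in TN61K/K. With -1.95 ± 0.57 (adjusted p = 0.0329) its log2 fold change was the lowest of the 39 and also among the least precise. Oas1a ranged between 1.14 and 6.23 CPM (median 3.42) in TN61H/H and between 3.28 and 30.5 CPM (median 8.98) in TN61K/K, a log2 fold change of -1.77 ± 0.47 (adjusted p = 0.023). Groups overlapped for all 3 genes, since TN61K/K replicate 4 fell among the TN61H/H tumours. Oas1a has near-identical neighbours in the mouse genome, so its counts may be shared with them. Of the synthetase-like genes, Oasl2 was lower in TN61H/H, at between 18.5 and 32.2 CPM (median 22.2) against between 23.8 and 90.6 CPM (median 40.9) in TN61K/K (log2 fold change -0.94 ± 0.25, adjusted p = 0.0214), and Oasl1 did not pass (-1.14 ± 0.49, adjusted p = 0.141).

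Isg15, Mx1, Rsad2 and Ifi44 also passed the test, and Mx2 did not. Isg15, a ubiquitin-like protein attached to other proteins, ranged between 2.28 and 6.20 CPM (median 4.11) in TN61H/H and between 4.33 and 24.6 CPM (median 9.27) in TN61K/K (log2 fold change -1.42 ± 0.40, edgeR adjusted p = 0.03). Mx1, named for a dynamin-like GTPase, ranged between 1.34 and 4.57 CPM (median 3.02) in TN61H/H and between 4.12 and 15.1 CPM (median 6.87) in TN61K/K (-1.42 ± 0.36, adjusted p = 0.0184). Its relative Mx2 did not pass, with -0.64 ± 0.25 (adjusted p = 0.1). Rsad2 (viperin, which makes a chain-terminating nucleotide) ranged between 1.94 and 11.1 CPM (median 3.67) in TN61H/H and between 5.01 and 32.9 CPM (median 8.92) in TN61K/K (-1.46 ± 0.45, adjusted p = 0.0454), and Ifi44 ranged between 0.846 and 3.78 CPM (median 1.63) in TN61H/H and between 1.26 and 19.6 CPM (median 4.41) in TN61K/K (-1.75 ± 0.55, adjusted p = 0.0456). Both ranges in TN61K/K had TN61K/K replicate 3 at the top and replicate 4 at the bottom.

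Differences of smaller size and error passed the test in 3 further genes. Eif2ak2, the kinase PKR that stops translation when it meets viral RNA, ranged between 26.2 and 42.2 CPM (median 37.1) in TN61H/H and between 39.4 and 78.98 CPM (median 54.5) in TN61K/K, a log2 fold change of -0.66 ± 0.17 (edgeR adjusted p = 0.019). Trim25, a ubiquitin ligase of the RNA sensing pathway, ranged between 45.97 and 62.8 CPM (median 54.1) in TN61H/H and between 61.4 and 124 CPM (median 77.2) in TN61K/K (-0.62 ± 0.16, adjusted p = 0.0183). Dhx58, the regulatory member of the RNA sensor family, ranged between 3.24 and 7.89 CPM (median 4.69) in TN61H/H and between 6.87 and 20.7 CPM (median 8.61) in TN61K/K (-1.11 ± 0.28, adjusted p = 0.0167). The sensors themselves did not pass, with -0.51 ± 0.26 for Ifih1 (adjusted p = 0.215) and 0.04 ± 0.21 for Ddx58 (adjusted p = 0.909, 95% interval -0.38 to 0.47).

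Several well-known ISGs did not pass the test. The Ifit genes encode proteins that bind foreign RNA, and Ifit1 stood at 8.07, 6.42, 9.82, 9.29, 9.20 and 20.1 CPM in TN61H/H, against 24.7, 17.3, 40.8, 8.36, 13.1 and 12.3 CPM in TN61K/K (-0.89 ± 0.37, edgeR adjusted p = 0.128). Ifit2 stood at 142, 139, 92.2, 67.7, 159 and 121 CPM in TN61H/H, against 121, 63.2, 106, 52.6, 54.9 and 168 CPM in TN61K/K. Its log2 fold change was positive, at 0.35 ± 0.30 (adjusted p = 0.482), and the groups overlapped widely. Ifit3, which may share reads with a near-identical copy, gave -0.42 ± 0.40 (adjusted p = 0.534). Usp18, which removes ISG15 and dampens IFNAR signalling, gave -0.24 ± 0.22 (adjusted p = 0.518), and Xaf1, a factor in cell death, gave -0.18 ± 0.21 (adjusted p = 0.616). Bst2, Ifi35 and Parp14 had log2 fold changes of -0.74, -0.25 and -0.44, with adjusted p of 0.135, 0.362 and 0.0503.

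Of the transcription factors, Irf9 was the member of the 39 whose TN61H/H and TN61K/K tumours did not overlap, as in 1.22% of all tested genes (lower in TN61H/H). Irf9 (chromosome 14, 55603985 to 55610030) stood at 26.99, 29.2, 30.004, 21.96, 27.6 and 32.5 CPM in TN61H/H, against 47.7, 42.5, 61.7, 33.1, 40.5 and 34.4 CPM in TN61K/K. The gap between the highest TN61H/H and the lowest TN61K/K tumour was narrow, and the log2 fold change was -0.63 ± 0.15 (edgeR adjusted p = 0.0136). Its partner Stat2 stood at 38.2, 39.03, 52.8, 41.5, 41.4 and 40.4 CPM in TN61H/H, against 49.7, 78.1, 85.02, 60.9, 77.3 and 43.96 CPM in TN61K/K (-0.64 ± 0.16, adjusted p = 0.0178). TN61H/H replicate 3 was the one TN61H/H tumour above the lowest 2 TN61K/K tumours. Irf7, which amplifies the type I response, stood at 6.27, 5.36, 15.3, 20.1, 6.23 and 13.1 CPM in TN61H/H, against 21.8, 24.5, 70.3, 11.2, 26.1 and 14.4 CPM in TN61K/K (-1.34 ± 0.41, adjusted p = 0.0439). Irf1, an early target of interferon gamma, did not pass (-0.35 ± 0.17, adjusted p = 0.195).

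Among the gamma targets Iigp1, an immunity-related GTPase that attacks the vacuoles of parasites, differed the most. It stood at 14.5, 9.74, 22.8, 12.9, 5.54 and 25.4 CPM in TN61H/H, against 73.5, 44.7, 122, 21.8, 44.004 and 37.3 CPM in TN61K/K, so that 2 TN61H/H tumours exceeded the lowest TN61K/K tumour. The log2 fold change was -1.92 ± 0.42 (edgeR adjusted p = 0.00981). Irgm1, a regulator of the same GTPases, stood at 22.1, 22.2, 25.1, 22.3, 23.7 and 30.5 CPM in TN61H/H, against 49.96, 33.9, 68.9, 25.7, 33.5 and 31.5 CPM in TN61K/K (-0.74 ± 0.22, adjusted p = 0.0351). The other 7 gamma targets did not pass, although all 9 fold changes were below 0, as were 49.5% of those of all tested genes. Irgm2 gave -0.81 ± 0.27 (adjusted p = 0.0593), Igtp gave -0.75 ± 0.32 (adjusted p = 0.135), and Cxcl9 gave -1.69 ± 0.61 (adjusted p = 0.0822). Members of the Irgm and Gbp families share sequence, so reads may be split between them.

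The Gbp genes, whose products coat and open pathogen vacuoles, had fold changes closer to 0. Gbp2, which shares 24 exon bases with Mir6381 on the opposite strand, ranged between 15.95 and 49.7 CPM (median 29.2) in TN61H/H and between 24.9 and 65.7 CPM (median 43.8) in TN61K/K (-0.63 ± 0.28, edgeR adjusted p = 0.15). Gbp3, Gbp5 and Gbp7 had log2 fold changes of -0.31, -0.40 and -0.06, with adjusted p of 0.511, 0.27 and 0.886. The chemokine genes, whose products draw in T cells through a shared receptor, had fold changes on opposite sides of 0. Cxcl9 stood at 1.99, 1.37, 3.03, 1.17, 0.328 and 3.84 CPM in TN61H/H, against 8.44, 4.54, 10.1, 3.88, 8.22 and 2.72 CPM in TN61K/K. Cxcl10 stood at 2.48, 2.75, 2.86, 2.45, 6.50 and 10.7 CPM in TN61H/H, against 4.95, 3.46, 1.88, 3.62, 5.66 and 1.94 CPM in TN61K/K, a log2 fold change of 0.37 ± 0.39 (adjusted p = 0.584). TN61H/H replicates 5 and 6 held the highest Cxcl10 values of all 24 tumours.

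**Figure D2:**
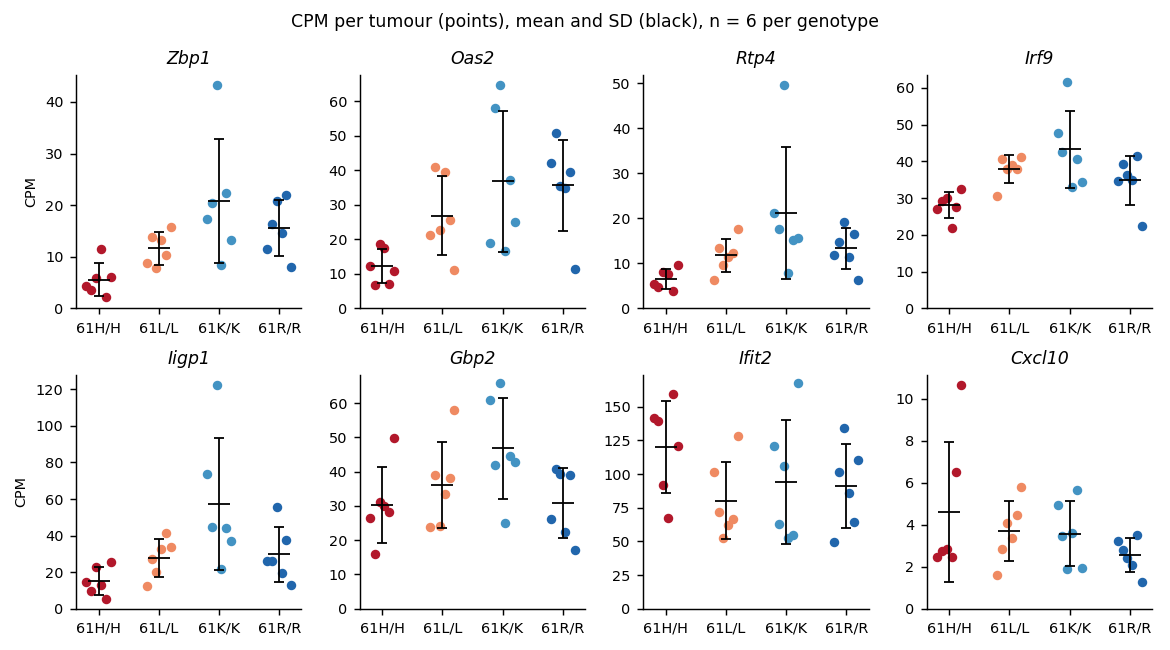
CPM of 8 ISGs in each tumour (points, 6 for each genotype) with the mean and SD in black. Irf9 in TN61H/H lies below every TN61K/K tumour, Zbp1, Oas2, Rtp4 and Iigp1 are low in most TN61H/H tumours, and Ifit2 and Cxcl10 are not.

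The count of 18 depended on single tumours and on the model fitted. It came to 4 without TN61K/K replicate 3, to 7, 8 and 11 without TN61H/H replicates 5, 1 and 2, to 4 in a fit of these 12 tumours alone and to 11 with the column name style as a covariate. Within the 18 tumours that have a separator, where TN61K/K keeps 3 tumours, no ISG was called by edgeR and 16 were lower at an unadjusted p under 0.05 (9.01% of all genes), with medians of -0.62 for type I and -0.51 for gamma targets. The fall in calls was not confined to ISGs. Over all tested genes, 1612 calls in either direction became 559 once TN61K/K replicate 3 was dropped. They became 447 in the fit of 12. The share of all genes called lower, 5.07% with every tumour, was 2.43% without TN61H/H replicate 1 and 3.21% without replicate 2. With TN61K/K replicate 3 dropped, the median log2 fold change was -0.55 for type I and -0.55 for gamma targets. Rtp4, Zbp1, Irf9 and Iigp1 kept their call with any 1 of the 12 tumours left out.

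Fewer ISGs passed in TN61H/H against TN61R/R. The edgeR test called 2 of 39 ISGs lower and none higher, against 0.761% of all tested genes lower and 1.26% higher. At an unadjusted p under 0.05, 16 were lower (6.91% of all genes) and 1 higher (8.88%). The median log2 fold change was -0.61 for the type I targets and -0.05 for the gamma targets, beside 0.01 for all genes. The gamma median was 0.02 without TN61R/R replicate 3 and 0.0001 without TN61R/R replicate 5.

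The called genes were Oas2 and Zbp1. Oas2 stood at 42.02, 50.9, 35.5, 34.8, 39.5 and 11.4 CPM in TN61R/R, and 5 of these 6 tumours lay above every TN61H/H tumour, the exception being replicate 6. The log2 fold change of TN61H/H against TN61R/R was -1.54 ± 0.39 (edgeR adjusted p = 0.0419). Zbp1 stood at 11.4, 16.3, 20.8, 14.7, 22.04 and 8.03 CPM in TN61R/R, where only TN61H/H replicate 4 reached into the range, and its log2 fold change was -1.47 ± 0.37 (adjusted p = 0.0418). Mx1 came next among the type I targets, with -1.20 ± 0.36 (adjusted p = 0.0787). Leaving out any of 9 tumours ended both calls, the count was 1 without TN61H/H replicate 3, 5 without TN61H/H replicate 4 and 4 without TN61R/R replicate 6, and within the 18 tumours that have a separator it was 0, with 14 lower at an unadjusted p under 0.05 (6.82% of all genes).

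None of the 9 gamma targets passed in TN61H/H against TN61R/R. The lowest p-values were those of Iigp1, at -0.97 ± 0.41 (edgeR adjusted p = 0.241), and of Irgm1, at -0.33 ± 0.22 (adjusted p = 0.517). Gbp2 gave -0.03 ± 0.28, with a 95% interval of -0.60 to 0.55, and Gbp7 gave 0.31 ± 0.22 (adjusted p = 0.575). In TN61R/R Iigp1 stood at 26.3, 26.2, 55.5, 19.5, 37.8 and 13.01 CPM and Gbp2 at 26.2, 40.9, 39.3, 22.4, 38.9 and 17.1 CPM. These ranges held 3 of the 6 TN61H/H tumours for Iigp1, with the other 3 below, and 4 of 6 for Gbp2. Cxcl10 was the member with an unadjusted p under 0.05 on the higher side, at 0.86 ± 0.40 (adjusted p = 0.291), with 3.23, 2.80, 2.42, 2.09, 3.51 and 1.27 CPM in TN61R/R. The comparisons with TN61K/K and with TN61R/R share the TN61H/H tumours, so their fold changes are not independent of each other.

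**Figure D3:**
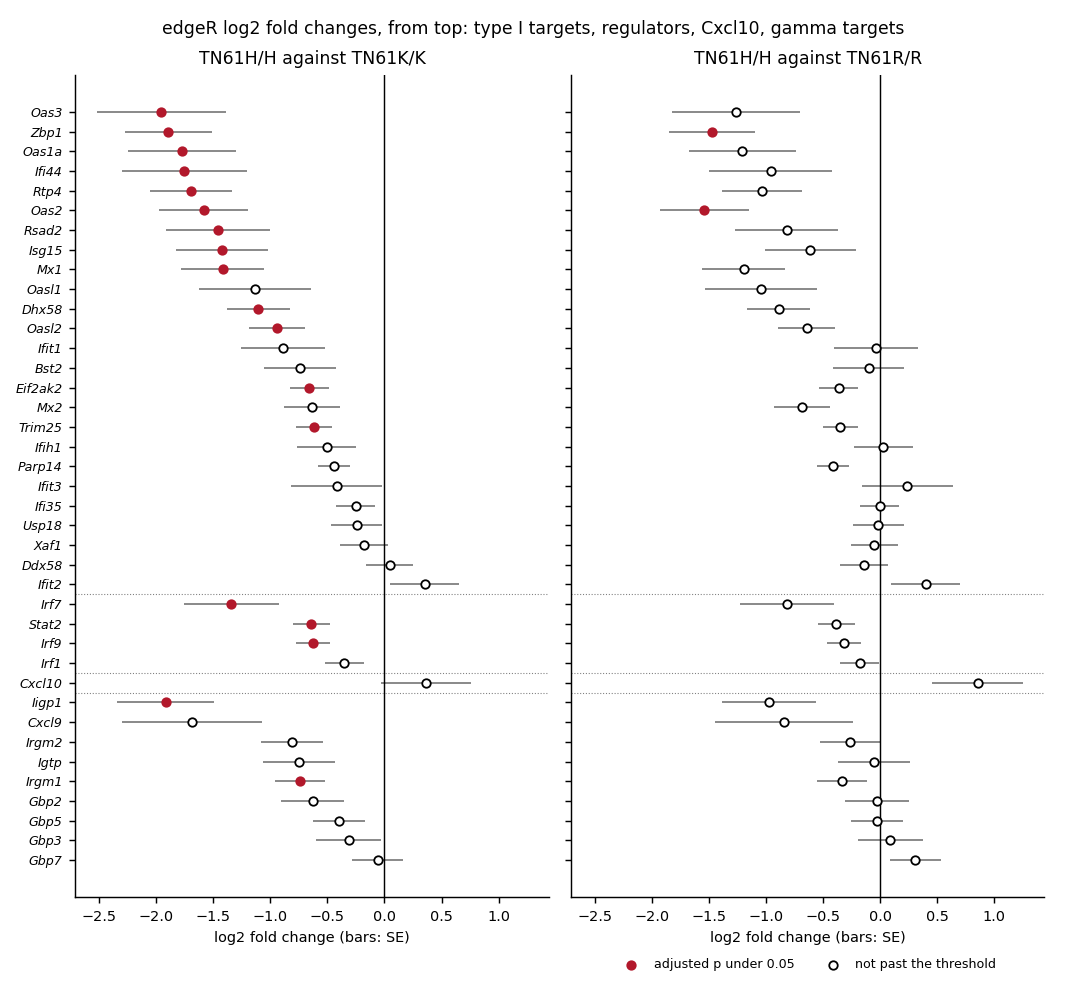
Log2 fold change and SE (edgeR) of 39 ISGs in TN61H/H against TN61K/K (left) and against TN61R/R (right), sorted within each role by the left panel. Filled points passed an adjusted p of 0.05, which were 18 genes on the left and 2 on the right, all lower in TN61H/H.

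Between TN61H/H and TN61L/L no ISG passed edgeR's adjusted threshold, nor did any gene of the whole table (0% called). At an unadjusted p under 0.05, 8 of 39 were lower in TN61H/H (5.65% of all genes) and 0 were higher (5.57%), and DESeq2 called 0. The median log2 fold change was -0.35 for the type I and -0.37 for the gamma targets, beside 0.03 for all genes. Oas2, with 21.4, 41.1, 22.8, 39.5, 25.7 and 11.1 CPM in TN61L/L, gave -1.13 ± 0.39 (edgeR adjusted p = 0.34), and Zbp1, with 8.79, 13.9, 7.76, 13.3, 10.4 and 15.8 CPM, gave -1.06 ± 0.37 (adjusted p = 0.342). Among the gamma targets Cxcl9 gave -1.45 ± 0.61 (adjusted p = 0.386) and Iigp1 -0.88 ± 0.41 (adjusted p = 0.433). TN61L/L held Cxcl9 at 0.387, 5.52, 3.43, 7.96, 9.24 and 5.47 CPM and Iigp1 at 12.7, 27.01, 19.98, 32.6, 41.6 and 33.5 CPM, with replicate 1 low for both.

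In the study TN61L/L, TN61K/K and TN61R/R stand for strong drivers of melanoma and TN61H/H for a weak one. In TN61L/L against TN61K/K no ISG and no other gene passed edgeR's adjusted threshold (0%), DESeq2 called 0 ISGs, and 7 ISGs were lower at an unadjusted p under 0.05 (4.44% of all genes) and 0 higher (3.65%). The median was -0.45 for type I and -0.29 for gamma targets, and -0.01 for all genes. Rtp4, with 6.41, 13.4, 9.56, 11.4, 12.4 and 17.5 CPM in TN61L/L, gave -0.84 ± 0.35 (adjusted p = 0.564) and Oasl2 gave -0.59 ± 0.25 (adjusted p = 0.565). Iigp1 gave -1.04 ± 0.41 (adjusted p = 0.544) and Irgm1 -0.37 ± 0.22 (adjusted p = 0.678). Without TN61K/K replicate 3 the type I median was -0.22.

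In TN61K/K against TN61R/R the edgeR test again called none of the ISGs and no gene of the table (0%), DESeq2 called 0 ISGs, and 5 ISGs were higher at an unadjusted p under 0.05 (2.88% of all genes) and 0 lower (2.27%). These were Ifit1, Irf9, Gbp2, Iigp1 and Igtp. Medians were 0.29 for type I and 0.55 for gamma targets, and 0.01 for all genes, and came to 0.04 and 0.30 without TN61K/K replicate 3. Ifit1, with 8.78, 14.6, 15.4, 9.37, 11.9 and 4.34 CPM in TN61R/R, gave 0.86 ± 0.37 (edgeR adjusted p = 0.774), and Ifih1 0.54 ± 0.26 (adjusted p = 0.774). Iigp1 gave 0.94 ± 0.41 and Igtp 0.69 ± 0.32, both at an adjusted p of 0.774. In TN61L/L against TN61R/R no ISG passed at the adjusted (0%) or the unadjusted threshold in edgeR (3.4% of all genes higher and 2.16% lower unadjusted), and DESeq2 called 0. Medians were -0.13 for type I and 0.15 for gamma targets, and -0.01 for all genes. The lowest p-values of the type I list were those of Mx1 at -0.48 ± 0.36 (adjusted p = 0.956) and Oasl2 at -0.29 ± 0.25 (adjusted p = 0.967), and those of the gamma list were Igtp at 0.38 ± 0.31 (adjusted p = 0.964) and Irgm2 at 0.29 ± 0.27 (adjusted p = 0.982). Cxcl10, which is on neither list, gave 0.54 ± 0.40 (adjusted p = 0.954).

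Asked for any difference among the 4 genotypes at once, edgeR called Zbp1 (adjusted p = 0.0339) and Rtp4 (adjusted p = 0.0447) among the 39, against 2.72% of all tested genes. Zbp1 averaged 5.60 ± 3.28 CPM in TN61H/H, 11.7 ± 3.17 CPM in TN61L/L, 20.8 ± 12.1 CPM in TN61K/K and 15.5 ± 5.38 CPM in TN61R/R (SD, n = 6 each). Rtp4 averaged 6.54 ± 2.20 CPM in TN61H/H, 11.8 ± 3.74 CPM in TN61L/L, 21.2 ± 14.6 CPM in TN61K/K and 13.4 ± 4.54 CPM in TN61R/R. In both genes TN61H/H was the lowest and TN61K/K the highest, with TN61L/L and TN61R/R between them, and those 2 middle genotypes did not differ beyond their spread. The count was 14 by DESeq2, which added Isg15, Mx1, Oas1a, Oas2, Oas3, Oasl2, Dhx58, Trim25, Eif2ak2, Irf9, Stat2 and Iigp1, and lay between 0 and 6 with 1 tumour left out. It was 0 without TN61H/H replicates 1, 2, 3 or 5, TN61L/L replicate 4, TN61K/K replicates 1, 2, 3 or 5 or TN61R/R replicates 3 or 5. It was 1 without TN61L/L replicates 2, 3 or 5 or TN61R/R replicates 1, 2 or 4, it was 5 without TN61H/H replicate 4 or TN61R/R replicate 6, and it was 6 without TN61K/K replicate 4.

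Tumours of the same genotype differed widely in ISG level. The mean deviation of the 25 type I targets from their 24-tumour means (log2 CPM) lay between -0.87 and -0.14 in TN61H/H (median -0.44), between -0.65 and 0.26 in TN61L/L (median 0.12), between -0.40 and 1.43 in TN61K/K (median 0.34) and between -0.65 and 0.43 in TN61R/R (median 0.29). For the 9 gamma targets the ranges were -0.74 to 0.35 (median -0.46) in TN61H/H, -0.72 to 0.67 (median 0.20) in TN61L/L, -0.22 to 1.21 (median 0.32) in TN61K/K and -0.89 to 0.47 (median -0.09) in TN61R/R. All 6 TN61H/H tumours were below 0 for the type I targets, whereas TN61H/H replicate 6 was above 0 for the gamma targets. Within the title code 61K the type I targets were at -0.13 and 0.39 in TN61R/R replicates 1 and 2, inside the TN61K/K range, and within 61L they were at 0.20 and 0.42 in TN61R/R replicates 4 and 5, against a highest TN61L/L value of 0.26. The lists parted in a few tumours. TN61R/R replicate 4 had type I targets at 0.20 and gamma targets at -0.61, and TN61H/H replicate 6 had type I targets at -0.14 and gamma targets at 0.35. TN61K/K replicate 1 had type I targets at 0.40 and gamma targets at 0.90, and TN61H/H replicate 4 had them at -0.24 and -0.65.

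**Figure D4:**
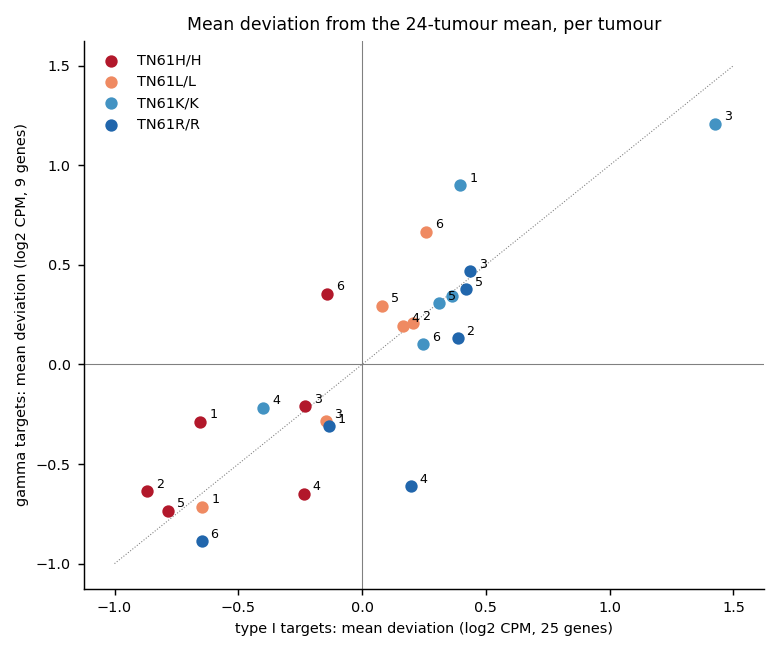
Mean deviation of 25 type I targets (horizontal) and 9 gamma targets (vertical) from their 24-tumour means, in log2 CPM, for each tumour, labelled by replicate number and coloured by genotype. The dotted line marks equal deviation, TN61K/K replicate 3 lies at the top right and TN61R/R replicate 4 lies far below the line.

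Genes that feed the response were given by a list of 48 ligands, receptors, kinases, brakes and sensors, of which 29 could be tested. Interferon transcripts were scarce. Ifnb1 had 0 reads in all 24 tumours, while Ifng had 81 reads in all, spread over 18 tumours. In a single library, a count of 0 leaves room for an expected count of up to 3 reads. Ifnk, the interferon of keratinocytes, was the ligand with enough reads to be tested and did not pass in TN61H/H against TN61K/K (-0.69 ± 0.63, edgeR adjusted p = 0.509). The IFNAR subunit Ifnar1 averaged 126 ± 25.98 CPM in TN61H/H and 127 ± 20.5 CPM in TN61K/K, with a log2 fold change of -0.02 ± 0.15 and a 95% interval of -0.32 to 0.29.

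In TN61H/H against TN61K/K, 7 of the 29 were lower and none higher, against 5.07% of all tested genes lower and 4.29% higher. Ifngr1, a chain of the interferon gamma receptor, stood at 74.04, 75.5, 62.7, 56.2, 57.9 and 77.97 CPM in TN61H/H, against 131, 94.99, 215, 79.9, 73.98 and 106 CPM in TN61K/K (-0.79 ± 0.21, edgeR adjusted p = 0.0212). Socs1, an interferon-induced brake on the kinases, stood at 1.48, 1.74, 3.26, 1.94, 1.99 and 2.24 CPM in TN61H/H, against 3.89, 5.43, 4.49, 3.67, 4.24 and 2.37 CPM in TN61K/K (-0.93 ± 0.23, adjusted p = 0.0156). The others were Socs3 (-1.15, adjusted p = 0.0349), the DNA pathway adaptor Tmem173 (-1.16, adjusted p = 0.00967), the Toll-like receptor adaptor Myd88 (-0.80, adjusted p = 0.0102) and the factors Irf5 (-1.17, adjusted p = 0.00711) and Irf8 (-1.003, adjusted p = 0.016). Irf5 and Irf8 are found mainly in myeloid and lymphoid cells. In TN61H/H against TN61R/R, Irf8 alone was lower (-0.99 ± 0.25, edgeR adjusted p = 0.0393) and none was higher. Of all tested genes, 0.761% were lower there and 1.26% higher. No listed gene passed in the remaining 4 comparisons.

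Some markers of leukocytes, which also express ISGs, were lower in TN61H/H too. Ptprc, the pan-leukocyte gene, stood at 34.7, 34.4, 39.5, 56.5, 19.9 and 70.2 CPM in TN61H/H, against 139, 127, 232, 53.02, 89.7 and 136 CPM in TN61K/K (-1.60 ± 0.35, edgeR adjusted p = 0.00907) and 84.9, 121, 152, 66.4, 129.6 and 52.4 CPM in TN61R/R (-1.25 ± 0.34, adjusted p = 0.0569). In the paper, RNA sequencing of TN melanomas gave higher immune regulation transcripts as a set in TN61R/R than in TN61H/H. Tumour sections stained there for CD45, the protein of Ptprc, showed no difference in immune infiltration between TN61R/R and the other genotypes. That staining counted cells in sections, whereas the values here are RNA of bulk tumours. Against TN61K/K, 8 of 10 macrophage markers were lower in TN61H/H, 3 of 12 T and natural killer cell markers, 3 of 8 dendritic cell markers and 2 of 6 tested neutrophil markers, where 5.07% of all tested genes were lower. Among other cell types, the fibroblast marker Pdgfra (-0.87 ± 0.22, adjusted p = 0.0183; 1 of 6) and the endothelial marker Tek (-1.13 ± 0.32, adjusted p = 0.0311; 1 of 5) were lower, and the melanocyte lineage factor Sox10 was higher (1.26 ± 0.31, adjusted p = 0.0157; 1 of 7). No B or plasma cell marker (4 tested) and no keratinocyte marker (5 tested) passed in edgeR. The macrophage markers summed to between 665 and 1417 CPM in TN61H/H, between 773 and 1641 CPM in TN61L/L, between 885 and 6075 CPM in TN61K/K and between 935 and 2119 CPM in TN61R/R. The T and natural killer cell markers summed to between 3.28 and 25.5 CPM in TN61H/H, 14.2 and 33.5 CPM in TN61L/L, 19.8 and 69.1 CPM in TN61K/K and 23.95 and 69.3 CPM in TN61R/R, and 4 of the 12 were at 0 in TN61H/H replicate 5. TN61K/K replicate 3, the tumour with the highest ISGs, also had the highest Ptprc and the highest macrophage sum, and TN61H/H replicate 5 had the lowest Ptprc. Against TN61R/R, 3 of 12 T and natural killer cell markers (Cd4, Nkg7 and Eomes) and 2 of 8 dendritic cell markers (Itgax and Ciita) were lower in TN61H/H, as was 1 of 6 neutrophil markers (Csf3r), where 0.761% of all tested genes were lower. No macrophage, B or plasma cell, melanocyte, fibroblast, endothelial or keratinocyte marker passed there in edgeR. No macrophage marker was at 0 in any tumour. The part of cell content in the ISG differences was not tested.

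**Figure D5:**
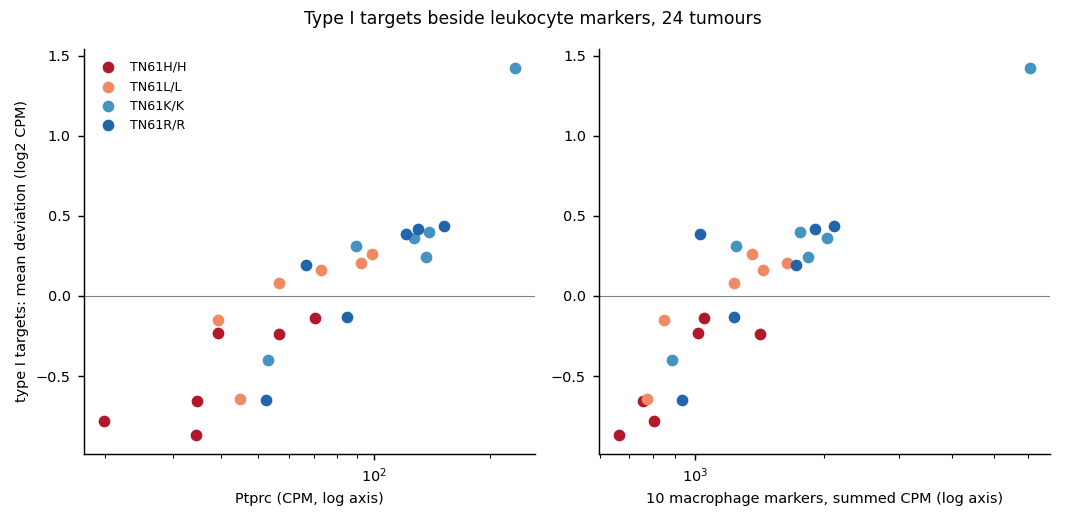
Mean deviation of the 25 type I targets (vertical, log2 CPM) beside Ptprc (left) and the sum of 10 macrophage markers (right), both in CPM on a log axis, for 24 tumours coloured by genotype. TN61K/K replicate 3 is the point at the top right of both panels, with 1.43, 232 CPM and 6075 CPM.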

How the data were processed

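RNA was sequenced from 24 melanomas, 6 for each of 4 genotypes, after ribosomal RNA depletion with a stranded total RNA kit. The authors aligned reads to mm10 with STAR, used Picard 2.17.11 and deposited raw featureCounts counts per gene; the strand setting of that counting was not stated in the sources at hand, and near-identical genes may share reads. Column names were matched to sample titles, and groups came from the labels. Totals were 31.95 to 43.77 M counts in TN61H/H, 32.12 to 39.03 in TN61L/L, 32.11 to 41.01 in TN61K/K and 32.72 to 39.08 in TN61R/R. Libraries of a genotype differed by more than sampling noise (lowest chi-square per degree of freedom 68.3).

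Counts of all tumours were fitted together in edgeR 4.0.16 (R 4.3.3, limma 3.58.1): filterByExpr left 17214 genes, TMM factors ran from 0.896 to 1.08, and robust quasi-likelihood F-tests compared 6 genotype pairs and all 4 genotypes, with Benjamini-Hochberg adjustment over all tested genes and a threshold of 0.05. SE is the absolute log2 fold change over the square root of F. CPM used TMM-scaled totals; deviations used log2 CPM with a prior count of 2. Scripts were tested on simulated data. Alternatives were RLE scaling, no filter, DESeq2 1.42.0, the column name style as a covariate, the 18 tumours with a separator, the 12 tumours compared and leaving out each tumour.

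The 39 members and all lists were chosen with earlier results of these data known. Named with values are called members, Ifit1, Isg15, Irf7, Stat2, Gbp2, Irgm1, Cxcl9, Cxcl10, the 3 of widest SD, and in each comparison the 2 type I and 2 gamma targets of lowest p; fold changes of further members were added after their values were seen. One gene of the upstream list is not reported here by name. Promoter windows and letters come from RefSeq (GRCm38.p6).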

Additional observations from a re-analysis of the deposited data

Results flagged for a closer look

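Within each genotype the highest and lowest tumour of every ISG were compared with the gap expected in 6 values by Dixon's test at its 95% critical value, on log2(CPM + 0.1). Of 156 sets, 13 stood out (8.33%), where chance gives about 1 in 20 for a set. The sets share the same tumours and are not independent, so this share cannot show an excess over chance. No explanation was tested.

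TN61L/L replicate 1 was far below the other 5 tumours of its genotype in 5 genes, with 2.85 CPM for Mx1, 3.18 CPM for Rsad2, 0.802 CPM for Ifi44, 30.6 CPM for Irf9 and 0.387 CPM for Cxcl9. TN61R/R replicate 6 was far below its genotype in 4 genes, with 11.4 CPM for Oas2, where the others held 34.8 to 50.9 CPM, 4.31 CPM for Usp18, 22.3 CPM for Irf9 and 36.1 CPM for Stat2. TN61H/H replicate 6 was far above its genotype in Ifit1, with 20.1 CPM where the others held 6.42 to 9.82 CPM, and in Gbp3, with 87.1 CPM where the others held 32.9 to 46.5 CPM. TN61H/H replicate 3 was far above the others for Stat2, with 52.8 CPM, and TN61K/K replicate 3 for Dhx58, with 20.7 CPM.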

How the results depend on the processing

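No called result reversed in any alternative, and the gamma median of TN61H/H against TN61R/R, which had no test, changed sign without TN61R/R replicates 3 or 5. In TN61H/H against TN61K/K the 18 ISGs called became 19 with RLE scaling, 15 with no filter, 21 with DESeq2, 11 with the column name style as a covariate, 4 in the fit of the 12 tumours and 0 among the 18 tumours with a separator, and lay between 4 and 20 with 1 tumour left out. In TN61H/H against TN61R/R the 2 calls became 4 with DESeq2, 3 with the style covariate and 0 with no filter, in the fit of 12 or among the 18 tumours, and lay between 0 and 5 with 1 tumour left out. For any difference, 2 became 14 with DESeq2, 1 with no filter or the style covariate and 0 among the 18 tumours, between 0 and 6 with 1 tumour left out. The other 4 comparisons held 0 ISGs in every alternative. Over all genes, calls in TN61H/H against TN61R/R were 348, and 919 with DESeq2, 683 with the covariate, 111 among the 18 tumours, 30 in the fit of 12 and 66 to 1093 with 1 tumour left out. In TN61H/H against TN61K/K they were 1612, and 168 among the 18, 447 in the fit of 12 and 559 to 2310 with 1 left out, and for any difference 469, and 1478 with DESeq2 and 11 among the 18. DESeq2 called 3 genes in TN61K/K against TN61R/R, 31 in TN61L/L against TN61R/R, 56 in TN61H/H against TN61L/L and 42 in TN61L/L against TN61K/K, where edgeR called 0. Fewer tumours enter the fits of 12 and 18; the cause of the other shifts was not tested. No paired analysis was possible because replicate numbers follow accession order and pair no tumours.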
